A study of Homo sapiens with 12 samples.

Results

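Pigment cells read hormones through a few G protein-coupled receptors and pass the signal on through cyclic AMP (cAMP). Alpha-melanocyte-stimulating hormone binds MC1R, the G protein Gs switches on adenylyl cyclase, cAMP frees the catalytic subunits of protein kinase A, and these phosphorylate CREB, which in melanocytes drives MITF, the master transcription factor of the lineage. Phosphodiesterases of the PDE4 family break cAMP down again, and the receptors EDNRB, for endothelins, and LPAR1, for lysophosphatidic acid (LPA), act mainly through other G proteins, among them Gi, which lowers cAMP. The mRNAs of 10 genes of this circuit were followed here, of 20045 genes with a named probe: the receptors MC1R, EDNRB and LPAR1, the adenylyl cyclases ADCY1, ADCY3, ADCY7 and ADCY9, the phosphodiesterases PDE4B and PDE4D, and CREB1 itself. All 23 probes annotated to these symbols were taken, of 47315 on the array, with no filter. The genes were picked with results from these arrays already known, so their differences, between the siRNAs too, are a description with no p-value, and the number of their probes past the threshold of the fit (an adjusted p of 0.05) is given only beside the share of all probes.

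The cells were HT144, an established human melanoma line, transfected in bulk with Lipofectamine2000 and kept for 48 h in normal growth medium. They received a non-targeting control siRNA (siNEG) or 1 of 2 siRNAs against CITED1 (siCITED1#1 and siCITED1#3), CITED1 being a transcriptional co-regulator that binds CBP and p300. Each of the 3 groups had 4 wells and 4 Illumina arrays. All wells came from 1 day and 1 passage, so the spread between arrays is that between wells of that day, and fewer cells of a kind cannot be told apart from less mRNA per cell. Values are log2 and centred on each probe over the 12 arrays, so each is a distance from that probe's mean and not a level, and no probe can be set against another in abundance. For the same reason the melanocytic identity of the line could not be checked by level.

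The target, read by ILMN_1691641, was lower by 1.56-fold with siCITED1#1 (-0.64 ± 0.06, log2 difference ± SE, 4 against 4 arrays, limma adjusted p = 1.82e-07) and by 1.68-fold with siCITED1#3 (-0.75 ± 0.06, adjusted p = 6.47e-08). Every siCITED1 array (-0.34 to -0.13) lay below every siNEG array (0.35 to 0.54), and the siRNAs did not differ past the threshold (adjusted p = 0.472). siNEG replicate 1 stood apart on the third principal component (9.4% of the variance, score 21.9 against -9.6 to 5.9 elsewhere), and results are also given without it where that matters. Of 11 probes for 6 fibroblast markers, 2 passed the threshold as higher pooled (1.11% of all probes passed in either direction), 2 with siCITED1#1 (6.04%) and 4 with siCITED1#3 (2.54%), those of LUM and COL1A2. Between the siRNAs COL1A2 was lower with siCITED1#1 at both of its probes (-0.64 and -0.56, adjusted p = 3.1e-06 and 0.00108) and LUM higher at 1 of 2 (0.44, adjusted p = 0.0258), where 7.46% of all probes passed. The mean centred value of that list ran from -0.11 to -0.09 on siNEG arrays, from 0.01 to 0.07 with siCITED1#1 and from 0.05 to 0.08 with siCITED1#3, and its part in the results was not tested. Of 10 probes for 4 leukocyte markers, CD68 ILMN_1714861 was lower with siCITED1#3 (-0.34, adjusted p = 0.0113) and higher with siCITED1#1 than with siCITED1#3 (0.26, adjusted p = 0.0337), and CD14 ILMN_2396444 was lower with siCITED1#1 than with siCITED1#3 (-0.30, adjusted p = 0.00538). The mean of that list ran from 0.01 to 0.06, from -0.05 to 0.01 and from -0.07 to 0.05 in siNEG, siCITED1#1 and siCITED1#3, and its part was not tested either. All 8 epithelial probes stayed short of the threshold in all 4 comparisons (limma, 1 at an unadjusted p under 0.05 with siCITED1#1 and 0 in the other comparisons).

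The results turn on 4 genes, and the leading 30 bases of the probes that carried them are shown, as the study's probe annotation gives them, to say which stretch of each mRNA was read. The capital-free runs are 5′ to 3′ in the sense of the mRNA, and the remaining bases of each 50-base probe are left out.
MC1R ILMN_1653319, chromosome 16: tgactcagtgaccagtgcctgtgagcatgg
EDNRB ILMN_1751904, chromosome 13: ttgcctggtccttgtctttgccctctgctg
EDNRB ILMN_1710297, chromosome 13: attagcgtttgcagcgacttggctcgggca
LPAR1 ILMN_1701441, chromosome 9: ctttgtttgagggactcgttatccagctct
ADCY1 ILMN_2120555, chromosome 7: gcgcctgcgttcttctgggtttggctagat

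Because CREB binds the cAMP response element and MITF the E-box and M-box, promoters were read for these letters. RefSeq windows (GRCh38.p14) of 300 bases, 250 before and 50 after a start site, were listed for 9 of the 10 genes, 29 windows in all. The full response element TGACGTCA was found in 0 of the 29 and in 1.85% of all 35116 windows. Its core TGACG, which the full element contains, was found in 6 windows of 4 genes (LPAR1, ADCY1, ADCY3 and PDE4D), against 24.6% of all windows. The ADCY1 windows overlap, and their match is the same site, 17 bases before one start and 245 before the other. The E-box CACGTG (7.26% of all windows) and the M-box core TCATGTG (2.92%) were found in 0 of the 29. Both strands were searched, and a match is a run of letters and not a known binding site. Only these exact letters were sought. The shorter run CATGTG was not, and the MC1R stretch printed below contains it, so a lack of matches does not show that MITF has no site. The 250 bases before the start are printed for ADCY1, with the core in capitals 17 bases before the start, and for MC1R, which held none of the 4 motifs in its window.
ADCY1 chr7:45573890-45574139, plus strand: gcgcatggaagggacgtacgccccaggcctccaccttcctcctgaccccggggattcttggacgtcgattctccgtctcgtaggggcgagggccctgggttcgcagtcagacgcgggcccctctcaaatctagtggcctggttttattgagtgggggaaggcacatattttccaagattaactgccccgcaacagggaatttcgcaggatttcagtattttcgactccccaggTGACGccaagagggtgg
MC1R chr16:89918612-89918861, plus strand: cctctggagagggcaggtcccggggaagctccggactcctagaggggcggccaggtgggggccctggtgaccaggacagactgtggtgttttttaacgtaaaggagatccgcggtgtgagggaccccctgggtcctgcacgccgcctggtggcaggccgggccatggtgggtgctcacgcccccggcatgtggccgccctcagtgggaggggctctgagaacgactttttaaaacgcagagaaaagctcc

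After CITED1 silencing MC1R mRNA was lower, EDNRB and ADCY1 mRNAs were higher, and LPAR1 was higher at 1 of its 2 probes. ADCY3 and ADCY9 were higher with siCITED1#3 (0.31 and 0.33, against 0.01 and 0.21 with siCITED1#1). No probe of PDE4B, PDE4D or CREB1 passed the threshold against siNEG. By an unadjusted p under 0.05 only (limma), 1 PDE4B probe had a lower mean with siCITED1#3 (-0.24), and 2 CREB1 probes with siCITED1#1 (-0.19 and -0.21). Such an unadjusted p was found for 11% of all probes with siCITED1#3 and 14.9% with siCITED1#1. With the 8 siCITED1 arrays pooled against siNEG, 5 of the 23 probes passed the threshold as higher and 1 as lower, in 4 genes, where 1.11% of all probes passed (0.583% as higher, 0.526% as lower). With siCITED1#1 alone 7 were higher and 1 lower, where 6.04% of all probes passed (2.79% and 3.25%). With siCITED1#3 alone 6 were higher and 1 lower, where 2.54% passed (1.34% and 1.2%). Groups did not overlap for 5 of the 23 probes pooled (1.68% of all probes), 6 with siCITED1#1 (9.19%) and 9 with siCITED1#3 (6.51%). Nothing is read from these shares, since the genes were chosen on such results. The median difference of the 23 probes was 0.05 pooled, against 0.0014 over all probes. Both siRNAs were set against the same siNEG arrays, so their differences are not independent of each other.

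MC1R, the receptor through which melanocortins raise cAMP and switch pigment synthesis to eumelanin, was read by 1 probe. On siNEG arrays 1 to 4 it read 0.14, 0.32, 0.33 and 0.44. With siCITED1#1 it read 0.06, -0.06, -0.15 and 0.04, and with siCITED1#3 -0.21, -0.33, -0.30 and -0.28. The 3 groups formed 3 separate steps, siNEG highest and siCITED1#3 lowest, with no array of one group inside the range of another. The difference was -0.46 ± 0.08 (1.38-fold lower) pooled, -0.33 ± 0.07 (1.26-fold) with siCITED1#1 and -0.59 ± 0.07 (1.5-fold) with siCITED1#3. Leaving out each array in turn moved the pooled difference only between -0.52 and -0.42, the former without siNEG replicate 1.

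The step between the siRNAs was 0.25, MC1R being higher with siCITED1#1 than with siCITED1#3 (95% interval from 0.11 to 0.39). It ran from 0.22 to 0.29 when each array was left out in turn.

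EDNRB, the receptor for endothelin 3 that melanoblasts need to spread and survive, was read by 4 probes, and all 4 had higher means with each siRNA. The clearest was ILMN_1751904, at -0.38, -0.21, -0.29 and -0.39 on the siNEG arrays. It read 0.13, 0.34, 0.27 and 0.43 with siCITED1#1 and 0.14, -0.12, 0.08 and -0.01 with siCITED1#3. All 8 siCITED1 arrays lay above the 4 siNEG arrays, while the siRNAs overlapped at 0.13 and 0.14. The difference was 0.48 ± 0.08 (1.39-fold) pooled, 0.61 ± 0.07 (1.52-fold) with siCITED1#1 and 0.34 ± 0.07 (1.27-fold) with siCITED1#3.

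ILMN_1710297 is annotated to another transcript of EDNRB than the other 3 probes. Its siNEG values were -0.22, -0.17, -0.24 and -0.18, close together. With siCITED1#1 it stood at 0.32, 0.30, 0.24 and 0.22, clear of all other arrays. With siCITED1#3 it stood at 0.09, -0.04, -0.09 and -0.23, so that replicate 4 fell among the siNEG arrays. The differences were 0.47 ± 0.07 with siCITED1#1 and 0.14 ± 0.07 with siCITED1#3.

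ILMN_2264916 gave -0.08, -0.26, -0.18 and -0.20 with siNEG. It gave -0.02, 0.16, 0.17 and 0.10 with siCITED1#1 and -0.03, 0.03, 0.28 and 0.01 with siCITED1#3. The siCITED1 arrays were all above the siNEG arrays, although 2 of them by little. The difference was 0.27 ± 0.06 pooled (0.24 to 0.30 with each array left out in turn) and 0.28 ± 0.07 with siCITED1#1 (0.26 to 0.32).

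ILMN_1675100 was the most scattered EDNRB probe. It read -0.56, -0.15, -0.23 and 0.00 with siNEG, 0.23, 0.43, 0.14 and -0.16 with siCITED1#1, and 0.07, -0.08, 0.29 and 0.02 with siCITED1#3. Its groups overlapped in every comparison. The difference with siCITED1#1 was 0.39 ± 0.11, with a range of 0.28 (without siNEG replicate 1) to 0.50 over the fits that left out 1 array.

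Between the siRNAs, the 4 EDNRB probes gave differences of unequal size, listed as a description. ILMN_1710297 was 0.33 higher with siCITED1#1 (95% interval from 0.20 to 0.47, and 0.28 to 0.38 with each array left out). ILMN_1751904 was 0.27 higher (from 0.11 to 0.42, and 0.22 to 0.32 with each array left out). The remaining probes gave 0.08 (from -0.14 to 0.31) and 0.03 (from -0.12 to 0.18). Averaged over its probes, EDNRB was 0.18 higher with siCITED1#1.

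LPAR1, a receptor for LPA that signals through Gi, Gq and G12/13, had the largest pooled difference of the 23 probes, at 1 of its 2 probes. ILMN_1701441 was at -0.74, -0.19, -0.30 and -0.73 on the siNEG arrays. It was at 0.35, 0.22, 0.45 and 0.14 with siCITED1#1 and at 0.27, 0.15, 0.18 and 0.20 with siCITED1#3. The siNEG arrays were far apart from each other, yet all 4 lay below all siCITED1 arrays. The difference was 0.74 ± 0.09 (1.67-fold) pooled, 0.78 ± 0.10 with siCITED1#1 and 0.69 ± 0.10 with siCITED1#3. Without siNEG replicate 1 the pooled difference was 0.65.

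The other LPAR1 probe, ILMN_1674984, is annotated to the same transcript and did not share this pattern. It read -0.17, 0.04, -0.11 and 0.06 with siNEG, 0.02, 0.15, -0.03 and -0.19 with siCITED1#1, and 0.00, 0.02, 0.19 and 0.02 with siCITED1#3. All 3 groups overlapped, and the pooled difference was 0.07 ± 0.07. The mean of both probes gave a pooled difference of 0.40. Between the siRNAs the differences were 0.09 (95% interval from -0.11 to 0.29) for ILMN_1701441 and -0.07 (from -0.23 to 0.08) for ILMN_1674984.

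**Figure D1:**
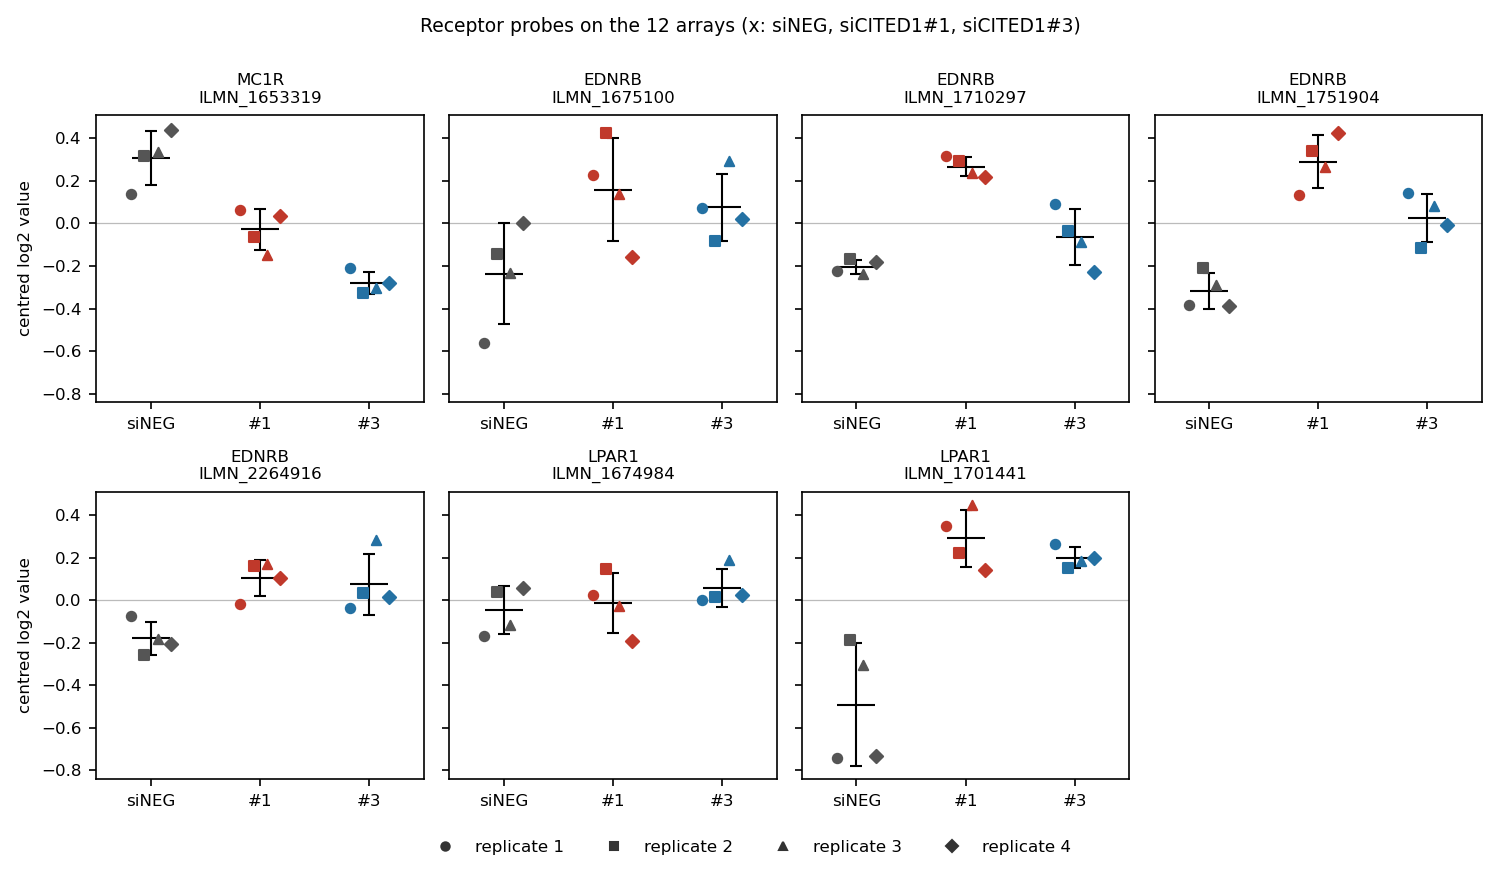
Centred log2 values (y axis) of the 7 receptor probes on the 12 arrays, grouped on the x axis as siNEG, siCITED1#1 and siCITED1#3, with marker shapes for the replicates and black bars for the mean ± SD of 4 arrays. MC1R falls in 3 separate steps, 0.31, -0.03 and -0.28 on average, while LPAR1 ILMN_1701441 and EDNRB ILMN_1751904 have all siCITED1 arrays above all siNEG arrays.

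Among the adenylyl cyclases, which make cAMP from ATP, ADCY1 stood out. It is a form stimulated by calcium and calmodulin and best known from neurons. Both of its probes had higher means with each siRNA. ILMN_2120555 read -0.72, -0.60, -0.16 and -0.40 with siNEG. It read 0.37, 0.52, 0.35 and 0.36 with siCITED1#1 and -0.03, 0.14, 0.17 and 0.01 with siCITED1#3. The groups made 3 separate steps here too, rising from siNEG through siCITED1#3 to siCITED1#1, whereas for MC1R it was siCITED1#3 that lay farthest from siNEG.

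The differences of this probe were 0.71 ± 0.11 (1.64-fold) pooled, 0.87 ± 0.09 (1.83-fold) with siCITED1#1 and 0.55 ± 0.09 (1.46-fold) with siCITED1#3. Without siNEG replicate 1 the pooled difference was 0.63. ADCY1 ILMN_1742073 gave smaller differences, from siNEG values of -0.41, 0.02, -0.33 and -0.25. It read 0.35, 0.08, -0.01 and 0.03 with siCITED1#1 and 0.02, 0.06, 0.27 and 0.17 with siCITED1#3. siNEG replicate 2 lay among the siCITED1 arrays.

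The pooled difference of ILMN_1742073 was 0.37 ± 0.08, and it ran from 0.31 (without siNEG replicate 1) to 0.45 when each array was left out. With siCITED1#1 it was 0.36 ± 0.09 (0.28 without siCITED1#1 replicate 1), and with siCITED1#3 it was 0.37 ± 0.09 (0.32 without siNEG replicate 1).

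Between the siRNAs the ADCY1 probes disagreed. ILMN_2120555 was 0.33 higher with siCITED1#1 (95% interval from 0.14 to 0.51, and 0.28 to 0.36 with each array left out). ILMN_1742073 gave -0.02 (from -0.20 to 0.17). Their mean gave 0.15.

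ADCY3, a cyclase of olfactory neurons and primary cilia, differed from siNEG and between the siRNAs through the siCITED1#3 arrays. With siNEG its probe read -0.09, -0.03, -0.22 and -0.10, and with siCITED1#1 -0.09, -0.11, -0.12 and -0.07. With siCITED1#3 it read 0.30, 0.24, 0.17 and 0.11, above all other arrays. The difference from siNEG was 0.01 ± 0.06 with siCITED1#1 and 0.31 ± 0.06 (1.24-fold) with siCITED1#3. siCITED1#1 minus siCITED1#3 was -0.30 (95% interval from -0.43 to -0.17), and it lay between -0.33 and -0.27 when each array was left out.

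ADCY9, a cyclase that forskolin stimulates poorly, read -0.24, -0.28, -0.14 and -0.06 with siNEG. It read 0.00, 0.18, -0.10 and 0.03 with siCITED1#1 and 0.07, -0.04, 0.26 and 0.32 with siCITED1#3. The siCITED1#3 arrays were all above the siNEG arrays, those of siCITED1#1 not. The difference was 0.33 ± 0.08 with siCITED1#3 and 0.21 ± 0.08 with siCITED1#1. The former ran from 0.28 to 0.40 when each array was left out. siCITED1#1 minus siCITED1#3 was -0.13 (95% interval from -0.29 to 0.03).

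ADCY7, a cyclase prominent in blood cells, was the only one of the 4 with a lower mean after silencing, by values within the spread. The group means were 0.06 ± 0.04 with siNEG, -0.07 ± 0.08 with siCITED1#1 and 0.00 ± 0.08 with siCITED1#3 (SD, n = 4). The pooled difference was -0.09 ± 0.05, and siCITED1#1 minus siCITED1#3 was -0.07 (95% interval from -0.20 to 0.06).

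**Figure D2:**
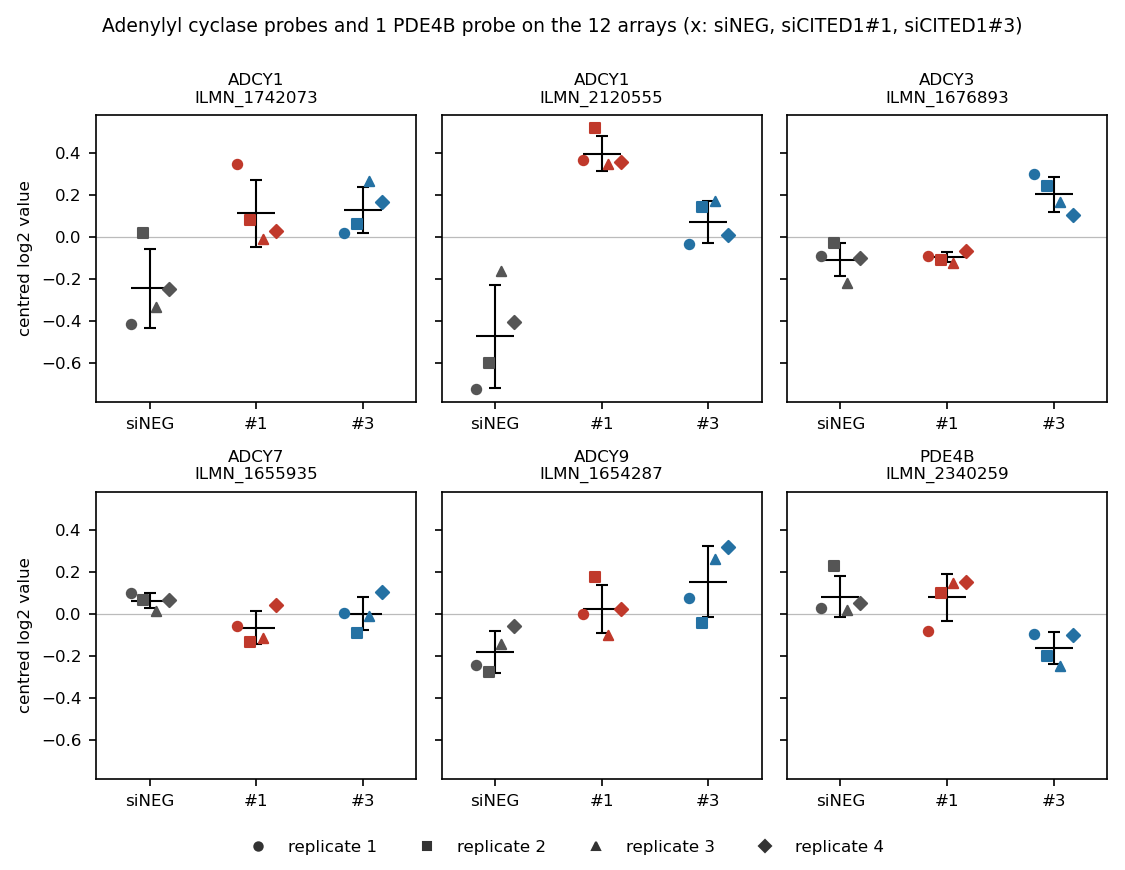
Centred log2 values (y axis) of the 5 adenylyl cyclase probes and of PDE4B ILMN_2340259 on the 12 arrays, by group on the x axis, with marker shapes for the replicates and black bars for the mean ± SD of 4 arrays. ADCY1 ILMN_2120555 has means of -0.47, 0.40 and 0.07 with siNEG, siCITED1#1 and siCITED1#3, and ADCY3 is apart with siCITED1#3 at 0.20.

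PDE4B and PDE4D, which hydrolyse cAMP and so end the signal, were read by 4 probes and 1 probe. Of these 5, 0 passed the threshold against siNEG in the pooled comparison or with either siRNA (limma, with 0, 0 and 1 at an unadjusted p under 0.05). Over all probes 9.59%, 14.9% and 11% had such an unadjusted p. PDE4B ILMN_2340259 was the exception among them by its values. It read 0.03, 0.23, 0.02 and 0.05 with siNEG, -0.08, 0.10, 0.15 and 0.15 with siCITED1#1, and -0.10, -0.20, -0.25 and -0.10 with siCITED1#3. The siCITED1#3 arrays lay below all 8 others.

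Its difference from siNEG was -0.24 ± 0.07 with siCITED1#3 and 0.00 ± 0.07 with siCITED1#1. siCITED1#1 minus siCITED1#3 was 0.24 (95% interval from 0.10 to 0.38, and 0.21 to 0.29 with each array left out). The other 3 PDE4B probes gave 0.00, 0.04 and 0.05 between the siRNAs, and the mean of all 4 gave 0.08. PDE4D gave group means of -0.01 ± 0.10, 0.06 ± 0.05 and -0.05 ± 0.07 for siNEG, siCITED1#1 and siCITED1#3 (SD, n = 4). Its siCITED1#1 arrays lay above its siCITED1#3 arrays, with a difference of 0.11 (95% interval from -0.02 to 0.25).

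CREB1, the transcription factor that protein kinase A phosphorylates, was read by 6 probes. None passed the threshold in the pooled comparison, with either siRNA or between them (limma, 0, 2, 0 and 1 probes at an unadjusted p under 0.05). Over all probes 9.59%, 14.9%, 11% and 16.3% had such an unadjusted p. Pooled differences ran from -0.12 to 0.06, those with siCITED1#1 from -0.21 to 0.10 and those with siCITED1#3 from -0.10 to 0.05. The lowest with siCITED1#1 were -0.21 ± 0.07 at ILMN_2334243 and -0.19 ± 0.07 at ILMN_2334242, both annotated to the same transcript, of which another probe, ILMN_3250923, gave -0.02 ± 0.07. On these 2 probes the siCITED1#1 arrays also lay below the siCITED1#3 arrays, with differences of -0.18 (95% interval from -0.33 to -0.04) and -0.13 (from -0.28 to 0.02), against 0.02 (from -0.13 to 0.16) at ILMN_3250923. Control of CREB by phosphorylation would not be seen in these values, which measure mRNA.

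In the fit between the siRNAs 6 of the 23 probes lay past the threshold, 5 higher and 1 lower with siCITED1#1, in MC1R, EDNRB, ADCY1, ADCY3 and PDE4B. Over all probes 7.46% did so, 3.64% as higher and 3.82% as lower. The number was 3 without siCITED1#1 replicate 2 or 4 or siCITED1#3 replicate 2 or 4. The genes were chosen with values of these arrays known, so nothing is read from this count. Arrays of the 2 siRNAs did not overlap for 8 of the 23 probes, against 10.9% of all probes. CITED1 mRNA itself (ILMN_1691641) was lower with siCITED1#3 than with siCITED1#1 by 0.11, short of the threshold, as given above. The paper, with a Western blot of CITED1 protein, describes siCITED1#3 as the less successful of the siRNAs at silencing.

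**Figure D3:**
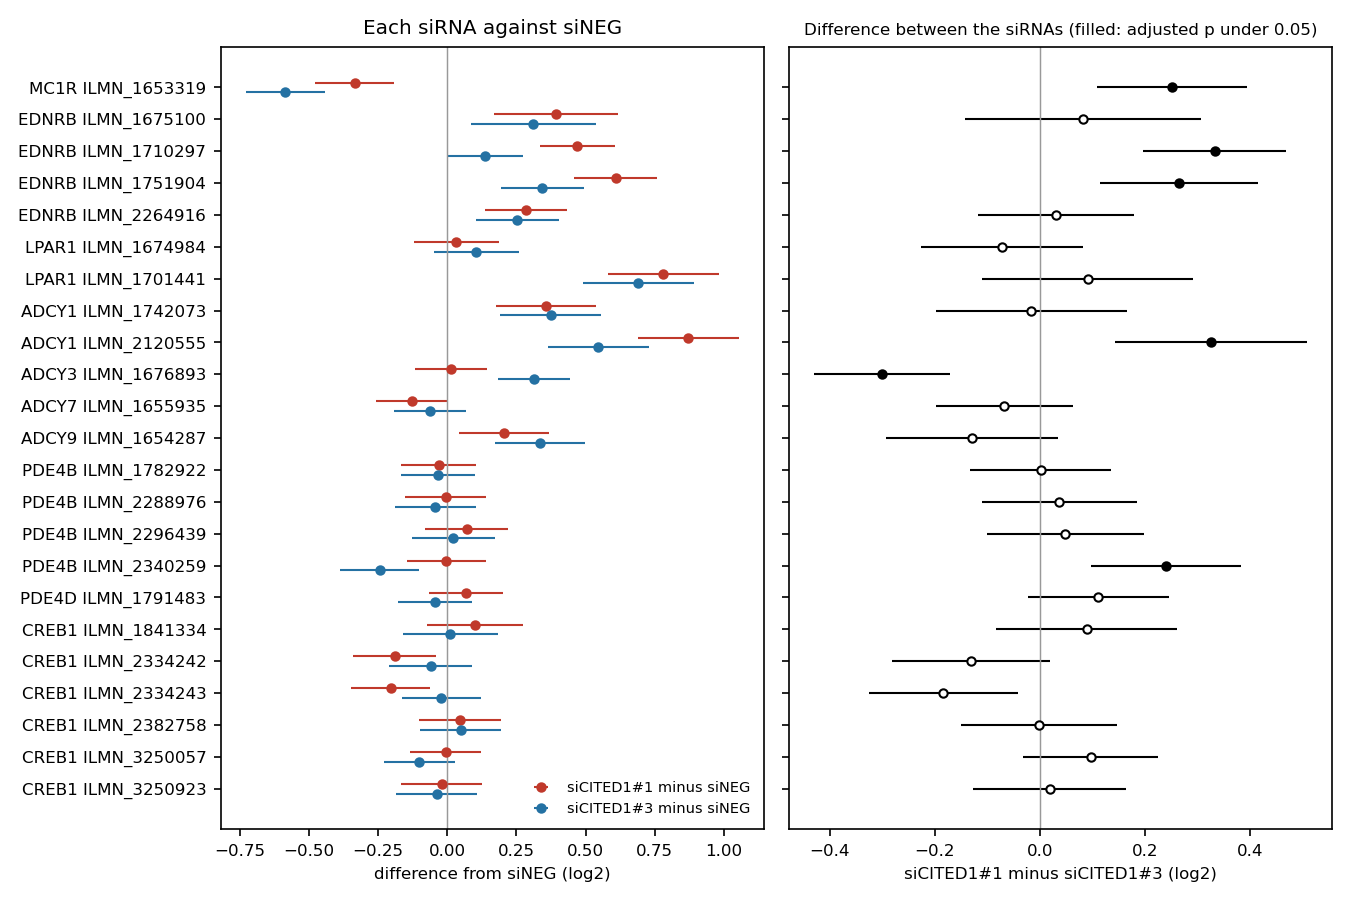
Log2 differences of the 23 probes with 95% intervals (x axes), each siRNA against siNEG on the left and siCITED1#1 minus siCITED1#3 on the right, where filled points had an adjusted p under 0.05. LPAR1 ILMN_1701441 lies at 0.78 and 0.69 on the left and near 0 on the right, whereas ADCY3 lies at 0.01 and 0.31 on the left and at -0.30 on the right.

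The rest of the pathway was followed in 14 lists of 147 genes, of which 136 matched 246 probes. Of these probes 4 rose and 1 fell in the pooled comparison (2.03%, against 1.11% of all probes). With siCITED1#1 14 rose and 6 fell (8.13%, against 6.04%), and with siCITED1#3 9 rose and 4 fell (5.28%, against 2.54%). Between the siRNAs 17 were higher and 11 lower with siCITED1#1 (11.4%, against 7.46%). The median difference of the 246 probes was between 0.00 and 0.01 in all 4 comparisons. The lists were written with earlier results of these data known, so nothing is read from these shares. For the same reason the adjusted p-values of listed genes (limma) are given only as a description. In the order pooled, siCITED1#1, siCITED1#3 and between them, 9.59%, 14.9%, 11% and 16.3% of all probes had an unadjusted p under 0.05. Of the 5, 20 and 13 calls against siNEG, 4, 17 and 11 were kept without siNEG replicate 1. In every fit that left out 1 array 3, 14 and 7 of them were kept, and 18 of the 28 between the siRNAs. The difference between the siRNAs holds no siNEG array, so leaving out siNEG replicate 1 does not change its size.

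Ligands and partners of MC1R (19 probes of 11 genes) gave 0 calls against siNEG, pooled or with either siRNA (limma, 0, 0 and 2 at an unadjusted p under 0.05). ATRN, attractin, an accessory receptor of the MC1R antagonist agouti in mice, was lower with siCITED1#1 than with siCITED1#3 at 1 of its 5 probes, ILMN_1772124 (-0.30 ± 0.07, adjusted p = 0.00394), the others giving -0.03 to 0.06. Of 9 probes for endothelins and their enzymes, that of EDN3, the ligand of EDNRB, rose with siCITED1#1 (ILMN_2358886, 0.27 ± 0.07, adjusted p = 0.0181). This call was lost without siNEG replicate 1 or 2 or siCITED1#1 replicate 3 (0.22 to 0.25), and the other EDN3 probe gave 0.09 (adjusted p = 0.588). Between the siRNAs the same EDN3 probe was 0.31 ± 0.07 higher with siCITED1#1 (adjusted p = 0.00515), in every fit that left out 1 array.

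In the LPA list (17 probes of 9 genes) ENPP2, autotaxin, the secreted enzyme that makes LPA, rose with both siRNAs. Its probe ILMN_2373791 was 0.37 ± 0.07 higher pooled (adjusted p = 0.0126), 0.33 ± 0.08 with siCITED1#1 (0.00832) and 0.42 ± 0.08 with siCITED1#3 (0.00198). The pooled call was lost without siNEG replicate 3 or 4, and that with siCITED1#1 without siNEG replicate 4 (0.26), the lowest pooled difference being 0.31. The other ENPP2 probe gave 0.24 pooled (adjusted p = 0.122). The phosphatases PLPP3 and PLPP1, which degrade LPA, each had 1 probe that rose with siCITED1#3, by 0.31 ± 0.07 (ILMN_2388800, adjusted p = 0.0143) and 0.26 ± 0.06 (ILMN_1676296, adjusted p = 0.0245). The other PLPP3 probe gave -0.06 (adjusted p = 0.835), and the other 2 of PLPP1 gave 0.22 and 0.21 (adjusted p = 0.172 and 0.146). PLPP3 lost its call without siCITED1#3 replicate 4 (0.23), and PLPP1 without siNEG replicate 2 or 4 or siCITED1#3 replicate 2, 3 or 4 (from 0.24).

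Among the G protein alpha subunits (24 probes of 13 genes) GNA13 rose with siCITED1#1 at 1 of 2 probes, ILMN_1758906, by 0.34 ± 0.09 (adjusted p = 0.0134, lost without siNEG replicate 4 or siCITED1#1 replicate 4, from 0.28). That probe was 0.40 ± 0.09 higher than with siCITED1#3 (adjusted p = 0.00248), in every fit that left out 1 array. The other GNA13 probe gave 0.14 with siCITED1#1 (adjusted p = 0.515) and 0.21 between the siRNAs (adjusted p = 0.172). GNAQ and 1 of 3 GNA12 probes passed between the siRNAs by little (0.32 ± 0.10, adjusted p = 0.0489, and -0.23 ± 0.06, adjusted p = 0.0285), the other GNA12 probes giving -0.06 and 0.01. Both calls were lost without siCITED1#1 replicate 2 or 3 or siCITED1#3 replicate 1, 2 or 3, that of GNAQ also without siNEG replicate 4, siCITED1#1 replicate 4 or siCITED1#3 replicate 4, and that of GNA12 without siCITED1#1 replicate 1. The differences then reached down to 0.27 for GNAQ and up to -0.20 for GNA12.

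RGS proteins shorten G protein signals. RGS2 was 0.57 ± 0.08 higher with siCITED1#3 (adjusted p = 3.04e-05) and 0.40 ± 0.08 lower with siCITED1#1 than with siCITED1#3 (a difference of -0.40, adjusted p = 0.000678), both kept without any single array. RGS10 was -0.27 ± 0.07 between the siRNAs at 1 of 3 probes (ILMN_1733538, adjusted p = 0.0135, lost without siCITED1#3 replicate 3 at -0.23), the others giving -0.06 and 0.01.

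Of 6 probes for 5 other adenylyl cyclases, 0 passed in any of the 4 comparisons (limma, 0 at an unadjusted p under 0.05 in each), and ADCY8 gave -0.11 ± 0.07 with siCITED1#1. Among 21 probes for 13 other cAMP phosphodiesterases, PDE4C was the only gene past the threshold. It fell with siCITED1#1 at 1 of 2 probes (-0.29 ± 0.08, adjusted p = 0.0312; the other gave -0.07), but not without siNEG replicate 1 (-0.20) or siCITED1#1 replicate 3 or 4.

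Protein kinase A subunits, inhibitors and anchors (48 probes of 23 genes) gave 6 calls between the siRNAs (7.46% of all probes were called there), 1 with siCITED1#1 (6.04%), 1 with siCITED1#3 (2.54%) and 0 pooled (1.11%; limma, 2 at an unadjusted p under 0.05). AKAP7, an anchor of the kinase, rose with siCITED1#1 at 1 of its 4 probes, ILMN_1733690, by 0.57 ± 0.08 (adjusted p = 3.7e-05), where the others gave 0.03, 0.04 and 0.14 (adjusted p from 0.354 to 0.936). Between the siRNAs the same probe was 0.63 ± 0.08 higher with siCITED1#1 (adjusted p = 8.09e-06), and the others gave 0.04 to 0.10. AKAP12, another anchor, rose with siCITED1#3 by 0.38 ± 0.08 at 1 of its 4 probes, ILMN_2308950 (adjusted p = 0.00485), with -0.48 ± 0.08 between the siRNAs (adjusted p = 0.000104), while the others gave -0.09 to 0.11 with siCITED1#3 and -0.26 (ILMN_1715532, adjusted p = 0.0189), -0.02 and 0.13 between the siRNAs. PRKAR1A, the regulatory subunit that holds the kinase inactive, was higher with siCITED1#1 than with siCITED1#3 at 2 of its 3 probes, by 0.52 ± 0.09 (adjusted p = 0.000167) and 0.27 ± 0.06 (adjusted p = 0.00632), the remaining probe being at -0.02. The calls of AKAP7, AKAP12 and PRKAR1A were kept in each of the 12 fits that left out 1 array, except that of AKAP12 ILMN_1715532. It was lost without siCITED1#1 replicate 3 or 4 or siCITED1#3 replicate 2 or 4 (up to -0.22). The remaining call between the siRNAs was that of PKIA ILMN_1762262 (0.26 ± 0.08, limma adjusted p = 0.0358), whose other probes gave 0.21 and 0.04. This PKIA call was kept in 7 of the 12 fits.

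The list of EPAC and RAP1, a route by which cAMP acts without the kinase (6 probes of 4 genes), gave 0 calls in the 4 comparisons (limma, 0, 1, 0 and 2 at an unadjusted p under 0.05 in the order pooled, siCITED1#1, siCITED1#3 and between them). Its largest difference was that of RAP1B between the siRNAs (-0.25 ± 0.08, adjusted p = 0.0519). The salt-inducible kinases, which restrain CREB coactivators (5 probes of 3 genes), also gave 0 calls (limma, 1, 1, 0 and 0 at an unadjusted p under 0.05), with 0.13 ± 0.06 pooled for SIK3.

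In the CREB family (15 probes of 10 genes) CREB3L2, a membrane-bound relative, fell with both siRNAs. It was -0.47 ± 0.07 pooled (adjusted p = 0.00272), -0.54 ± 0.08 with siCITED1#1 (2.71e-05) and -0.39 ± 0.08 with siCITED1#3 (0.00303), in every fit that left out 1 array. CRTC3, a CREB coactivator, rose by 0.24 ± 0.06 with siCITED1#1 (adjusted p = 0.0214, lost without siNEG replicate 4 or siCITED1#1 replicate 1 or 2, from 0.20).

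Genes that cAMP is known to induce through CREB (30 probes of 17 genes) gave 4 rises and 3 falls with siCITED1#1 (2.79% and 3.25% of all probes), and 1 rise and 2 falls with siCITED1#3 (1.34% and 1.2%). NR4A2, an orphan nuclear receptor, rose with siCITED1#1 at both of its probes, by 0.99 ± 0.09 (ILMN_1782305, adjusted p = 3.46e-08) and 0.90 ± 0.07 (ILMN_2339955, adjusted p = 5.33e-09). With siCITED1#3 both fell, at -0.36 ± 0.09 (adjusted p = 0.0224) and -0.33 ± 0.07 (adjusted p = 0.00808). Between the siRNAs the differences were 1.35 ± 0.09 and 1.23 ± 0.07 (limma adjusted p = 1.74e-10 and 3.16e-11). The falls with siCITED1#3 were the weaker side: ILMN_2339955 lost its call without siCITED1#3 replicate 3 (-0.28), and ILMN_1782305 without siNEG replicate 3 or 4 or siCITED1#3 replicate 1, 3 or 4 (up to -0.29).

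PPARGC1A, a coactivator of mitochondrial genes and a known MITF target, rose by 0.59 ± 0.07 with siCITED1#1 (adjusted p = 3.72e-06) and was 0.59 ± 0.07 higher than with siCITED1#3 (adjusted p = 3.46e-06). CCNA2, cyclin A2, fell by 0.58 ± 0.09 with siCITED1#1 (adjusted p = 5.06e-05). FOSB and EGR1 fell with siCITED1#1 too, at -0.44 ± 0.07 (adjusted p = 7.53e-05) and -0.38 ± 0.07 (adjusted p = 0.000434). Between the siRNAs they gave -0.38 ± 0.07 (adjusted p = 0.000367) and -0.51 ± 0.07 (adjusted p = 7.19e-06). These calls of FOSB and EGR1 were kept in each of the 12 fits that left out 1 array. DUSP1, a phosphatase of MAP kinases, was the only gene of this list that rose in the pooled comparison (0.39 ± 0.08, adjusted p = 0.0153). It lost that call without siNEG replicate 1 (0.36, adjusted p = 0.0661) or 2. With each siRNA alone DUSP1 was higher by 0.35 ± 0.08 (siCITED1#1, limma adjusted p = 0.00816) and 0.43 ± 0.08 (siCITED1#3, 0.00291). Both of these calls were kept in each of the 12 fits.

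Melanocyte genes downstream of cAMP and MITF (11 probes of 6 genes) gave 2 rises pooled, 5 with siCITED1#1 and 3 with siCITED1#3 (0.583%, 2.79% and 1.34% of all probes rose), and 0 falls. MLANA, a melanosome protein, rose by 0.80 ± 0.08 pooled (adjusted p = 7.68e-05). The other pooled rise was that of MITF at ILMN_2304186 (0.49 ± 0.07, adjusted p = 0.000762), with 0.49 for siCITED1#1 and 0.50 for siCITED1#3. The other MITF probes gave 0.16 and 0.02 pooled (adjusted p = 0.214 and 0.955). PMEL, the fibril protein of melanosomes, rose with siCITED1#1 (0.98 ± 0.10, adjusted p = 2.2e-07) and was 1.18 ± 0.10 higher than with siCITED1#3 (adjusted p = 9.71e-09). TYR, tyrosinase, was 0.66 ± 0.07 higher with siCITED1#1 than with siCITED1#3 (adjusted p = 8.25e-07). KITLG, the ligand of the receptor KIT, was lower with siCITED1#1 than with siCITED1#3 at 1 of 3 probes, ILMN_2341595 (-0.38 ± 0.08, adjusted p = 0.00263; the others gave 0.12 and 0.03). The calls given here by value were kept in all fits that left out 1 array. The rise of TYR with siCITED1#3 (0.27 ± 0.07, limma adjusted p = 0.0458) was kept in only 3 of these 12 fits. MC1R, itself a melanocyte gene, was lower in the same wells in which MLANA was higher. Not all genes of this list went with MLANA. With siCITED1#3 PMEL gave -0.20 ± 0.10 and TYRP1 0.24 ± 0.09, both short of the threshold (limma adjusted p = 0.458 and 0.208). The mean of 5 melanocyte marker probes ran from -0.317 to -0.176 with siNEG. It ran from 0.23 to 0.391 with siCITED1#1 and from -0.178 to 0.017 with siCITED1#3.

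**Figure D4:**
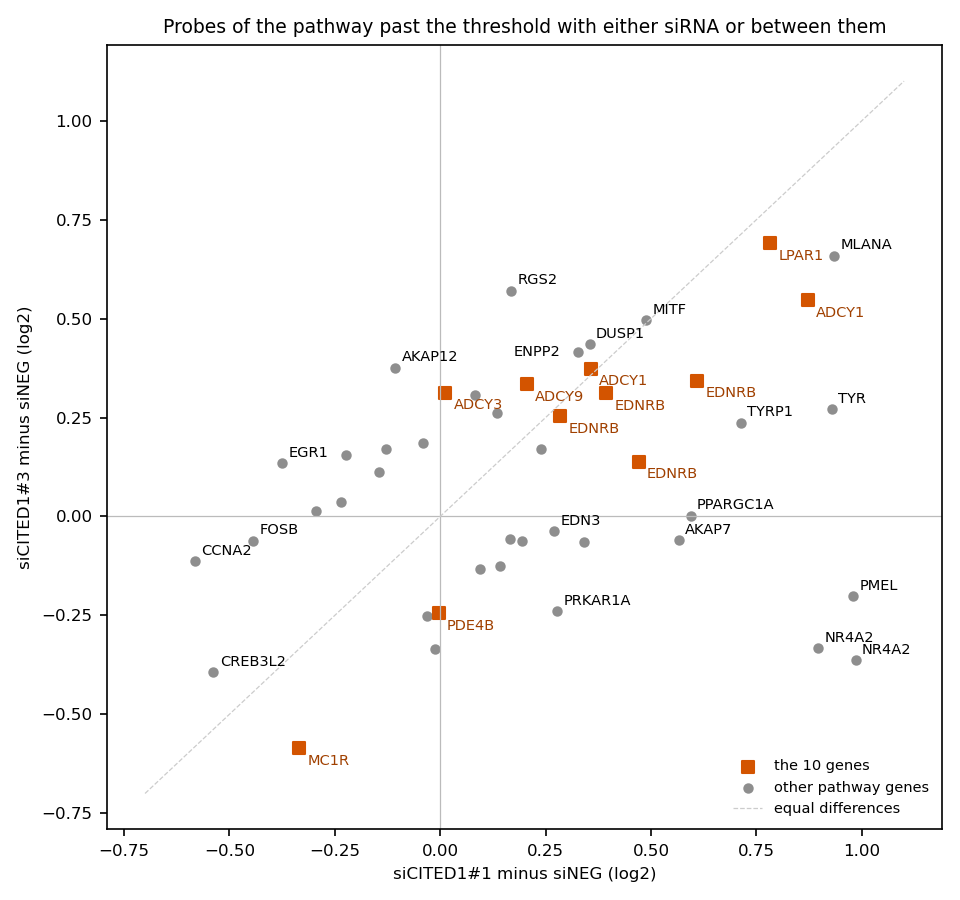
Log2 difference with siCITED1#1 (x axis) against that with siCITED1#3 (y axis) for probes past the threshold with either siRNA or between them, squares for the 10 genes and grey points for other pathway genes. Both axes use the same siNEG arrays, and the dashed line marks equal differences. LPAR1 (0.78, 0.69) and ADCY1 (0.87, 0.55) lie at the upper right with MLANA, MC1R (-0.33, -0.59) at the lower left, and NR4A2 (0.99, -0.36) far from the line.

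For each gene called in the pooled comparison, the most similar probes of other genes were sought over the 12 arrays, by Pearson's r with its most changed probe, as a description of arrays that share the group differences. MC1R was most like MGLL, monoglyceride lipase (r = 0.959, and 0.743 after the group means were taken out), HLA-DOA (0.946 and 0.461) and HLA-DPB1 (0.94 and 0.335). EDNRB was most like STK32A (0.961 and 0.666), QARS1 (0.954 and 0.89) and TTC13 (0.945 and 0.698). LPAR1 was most like COPG2 (0.93 and 0.765), MEF2C (0.917 and 0.518) and CALU (0.916 and 0.408). ADCY1 was most like IFI16 (0.958 and 0.713), SGK1 (0.951 and 0.671) and NCALD (0.946 and 0.484). In all 12 pairs the likeness was smaller within groups than over them, and nothing on shared control is drawn from it.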

How the data were processed

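RNA of 12 HT144 wells (3 groups of 4, grouped by sample title) was measured on Illumina HT-12 arrays. The authors quantile normalised the intensities, removed control probes in BASE, and took log2 values that were centred on genes and samples in MeV; the deposited log2 values were used unchanged. Probe means lay within 1.33e-07 and array means within 1.43e-05 of 0. For background correction, software versions, slide and scan, the sources used here give nothing, and centred values allow no filter on dim probes. That the logarithm has base 2 is taken from the methods. Of 47315 probes, 30105 carried a single symbol (for 30066 through their Entrez ID), 8 carried several and 17202 were not listed.

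All probes were fitted in limma 3.58.1 (R 4.3.3, lmFit and eBayes), with two-sided p-values adjusted by Benjamini-Hochberg over all probes and a threshold of 0.05. The pooled comparison set 8 siCITED1 arrays against 4 siNEG arrays, the two-group design of the study, with limma in place of SAM, which was not run. A model of 3 groups gave each siRNA against siNEG and siCITED1#1 minus siCITED1#3. Errors of differences are SEs, those of group means SDs, and intervals are 95%. In simulated data with known changes the fits were tested beforehand. The precision is limited by the number of arrays.

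The 10 genes and all gene lists were chosen with earlier results of these data known. Array values were printed for each of the 10 genes with a probe past the threshold. For lists, up to 3 genes past it with the largest change were named, with fewer or other values where none passed. More were named among the genes that cAMP induces and the melanocyte genes. For likeness the 3 highest correlations were given. Of the 147 listed pathway genes, 11 were matched to no probe. Same-numbered arrays were not paired, since their deviations correlated at -0.054 to 0.098 over 12 pairs. Alternatives were quantile normalisation of the deposited values, leaving out the least variable probes, a replicate block, array weights, a robust prior, averaging the probes of a gene, the average of both siRNA contrasts, and leaving out each array. Protein sequences were not used here, and ADCY9 had no promoter window in the table used.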

Additional observations from a re-analysis of the deposited data

Results flagged for a closer look

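Of 69 groups of 4 arrays (23 probes in 3 groups), 3 held an array far from the other 3 by Dixon's criterion, where chance gives about 1 in 20. These were siCITED1#3 replicate 3 at LPAR1 ILMN_1674984 (0.19), siCITED1#1 replicate 2 at ADCY1 ILMN_2120555 (0.52) and siNEG replicate 2 at PDE4B ILMN_2340259 (0.23).

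At 6 probes siCITED1#1 minus siCITED1#3 lay past the threshold of the fit (limma, adjusted over all probes), given as a description since the genes were chosen with these arrays known. The differences were 0.25 for MC1R, 0.33 for EDNRB ILMN_1710297, 0.27 for EDNRB ILMN_1751904, 0.33 for ADCY1 ILMN_2120555, -0.30 for ADCY3 and 0.24 for PDE4B ILMN_2340259. Relative to siNEG, these probes of ADCY1 and EDNRB were farther from the control with siCITED1#1, and those of MC1R, ADCY3 and PDE4B with siCITED1#3. Other probes of a gene did not always share this. ADCY1 ILMN_1742073 gave 0.36 with siCITED1#1 and 0.37 with siCITED1#3, and PDE4B ILMN_1782922 gave -0.03 with each. Over all probes 7.46% differed between the siRNAs.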

How the results depend on the processing

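No direction turned under any alternative run on the called probes. Over the 19 alternatives of the pooled comparison the difference ran from -0.52 to -0.42 for MC1R, from 0.40 to 0.84 for LPAR1 ILMN_1701441, from 0.35 to 0.52 for EDNRB ILMN_1751904 and from 0.54 to 0.81 for ADCY1 ILMN_2120555, where averaging over probes gave the lower end of the last 3. The number of probes called fell in the pooled comparison from 525 to 291 with a replicate block and was 1692 as the average of both siRNA contrasts, whose error leaves out the difference between the siRNAs. With the block 4 of the 23 probes, in place of 6, lay past the threshold in the pooled comparison; arrays share only a number, which was the best match in 3 of 12 pairs. With a robust prior EDNRB ILMN_1675100 no longer did so with siCITED1#1, which left 7 in place of 8, and among the more variable probes PDE4B ILMN_2340259 no longer did so between the siRNAs, which left 5 in place of 6. Leaving out each array gave 240 to 592 calls pooled (329 without siNEG replicate 1, 240 without siNEG replicate 4), 2335 to 2845 with siCITED1#1, 860 to 1392 with siCITED1#3 and 2901 to 3964 between them. Of the 23 probes 4 to 7, 6 to 9, 5 to 8 and 3 to 6 were then called. For the pathway lists, added after the values were seen, these ranges were 4 to 6, 16 to 20, 8 to 14 (8 without siCITED1#3 replicate 4) and 22 to 32, and the pooled count was 8 among the more variable probes and 18 as the average of contrasts. Signal over background could not be assessed in centred values, and the cause of lost calls was not tested.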
